A study of Mus musculus with 11 samples.

Results

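The regions examined here are 9 gene loci of the pluripotency and epiblast programme of the mouse (Mus musculus), each read for autosomal enrichment of Xist RNA. A locus is a window of 500 kb, 250 kb to each side of a given position on the mm9 genome build. The positions were chr6:122.66 Mb for Nanog, chr3:34.55 Mb for Sox2, chr17:35.645 Mb for Pou5f1, chr14:49.28 Mb for Otx2, chr4:55.54 Mb for Klf4, chr2:153.48 Mb for Dnmt3b, chr12:87.7 Mb for Esrrb, chr5:98.68 Mb for Fgf5 and chr8:44.38 Mb for Zfp42. They were chosen by gene and not by any peak value, and the 9 loci were set against all 4633 windows of 500 kb that tile the 19 autosomes between the first and last peak of each. The positions are rounded to 10 kb (5 kb for Pou5f1), so a distance under that does not place a peak before, in or after a gene.

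The study mapped where Xist RNA lies on the genome by RNA antisense purification and DNA sequencing (RAP-seq), in which biotinylated oligonucleotides capture an RNA from crosslinked chromatin and the DNA held with it is sequenced. Peak lists of 6 pulldowns were used, and the 5 input libraries are not analysed here as data. The D2 and D4 groups (2 libraries each) were female epiblast-like cells (EpiLCs) at day 2 and day 4. They were made from embryonic stem cells that had been kept without feeders in LIF with the inhibitors CHIR99021 and PD0325901 and were then moved to Activin A and bFGF. Female and male mouse embryonic fibroblasts (MEFs), 1 library each, were grown in serum medium. Per the labels, no group received any other agent. The sources used here do not give a strain, a cell line or clone, a genotype beyond the sex or the embryos' age. The labels name cells and not cultures, so replicates may be technical, and MEF values have no replicate check. No RNA levels are among these files, so neither the cell types nor the expression of the 9 genes could be checked.

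In female mammals the noncoding RNA Xist spreads over 1 X chromosome and silences it, and male cells normally do not express it. EpiLCs model the passage from naive pluripotency, the state of the early epiblast, to the formative state that precedes the primed epiblast of the implanted embryo. Pou5f1 (OCT4), Sox2 and Nanog are the core transcription factors of pluripotency, Klf4, Esrrb and Zfp42 (REX1) mark the naive state, and Otx2, Fgf5 and Dnmt3b rise as cells leave it.

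Promoter sequences are shown for the 3 genes whose given position lay nearest to a D2 peak (Sox2, Otx2 and Esrrb) and for the 3 genes whose windows held no peak in any list (Klf4, Fgf5 and Zfp42). Each is the 250 bases before the annotated start in RefSeq's GRCm38.p6 table, in which all 9 genes were found, written 5′ to 3′ on the gene's strand. Only 1 start per gene was read. Otx2 has 4 entries and Esrrb, Nanog and Pou5f1 have 2 each, of which that at the gene's outer end was taken. Values over all promoters count every entry. Capitals mark the POU octamer core ATGCAAA on either strand, the letters searched for besides the SOX core ACAATG and the YY1 core GCCATNTT. The Sox2 stretch is chr3:34649745-34649994 (+), that of Otx2 chr14:48667645-48667894 (-) and that of Esrrb chr12:86360867-86361116 (+). The Klf4 stretch is chr4:55532476-55532725 (-), that of Fgf5 chr5:98253934-98254183 (+) and that of Zfp42 chr8:43307010-43307259 (-). These coordinates are on another build than the peaks and cannot be set against them, and no sequence of a peak is printed because no mm9 genome was used here.
Sox2: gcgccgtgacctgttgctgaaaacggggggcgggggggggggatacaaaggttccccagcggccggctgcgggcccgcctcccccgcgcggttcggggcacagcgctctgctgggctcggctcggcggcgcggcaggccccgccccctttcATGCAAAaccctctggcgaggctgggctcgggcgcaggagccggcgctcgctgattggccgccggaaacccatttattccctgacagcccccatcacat
Otx2: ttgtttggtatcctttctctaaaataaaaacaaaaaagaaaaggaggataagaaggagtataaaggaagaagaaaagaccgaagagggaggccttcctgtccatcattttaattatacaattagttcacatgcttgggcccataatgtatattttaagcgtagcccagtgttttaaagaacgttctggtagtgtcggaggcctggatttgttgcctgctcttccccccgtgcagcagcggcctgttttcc
Esrrb: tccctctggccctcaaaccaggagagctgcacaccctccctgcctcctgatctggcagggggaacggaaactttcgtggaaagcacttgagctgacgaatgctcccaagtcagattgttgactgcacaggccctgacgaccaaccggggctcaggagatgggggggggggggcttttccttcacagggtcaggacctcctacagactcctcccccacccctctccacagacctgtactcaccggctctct
Klf4: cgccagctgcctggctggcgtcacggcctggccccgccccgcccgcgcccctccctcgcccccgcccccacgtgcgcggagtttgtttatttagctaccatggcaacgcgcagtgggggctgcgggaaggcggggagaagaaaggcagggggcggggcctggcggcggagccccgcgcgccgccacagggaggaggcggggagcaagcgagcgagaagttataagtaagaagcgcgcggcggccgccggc
Fgf5: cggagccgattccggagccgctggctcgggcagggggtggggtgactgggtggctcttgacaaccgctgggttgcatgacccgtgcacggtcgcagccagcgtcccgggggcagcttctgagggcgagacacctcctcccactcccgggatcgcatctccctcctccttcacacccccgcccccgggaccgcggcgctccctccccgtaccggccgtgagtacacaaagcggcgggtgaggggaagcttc
Zfp42: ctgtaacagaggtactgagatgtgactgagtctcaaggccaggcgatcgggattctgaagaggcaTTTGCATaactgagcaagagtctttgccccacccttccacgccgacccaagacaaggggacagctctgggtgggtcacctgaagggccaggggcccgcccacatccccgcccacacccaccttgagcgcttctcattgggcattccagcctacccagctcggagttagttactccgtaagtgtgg

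The sequences did not separate the genes with a near D2 peak from those with an empty window. GC content was 72% for Sox2, 42% for Otx2 and 60.8% for Esrrb, against 74% for Klf4, 70.8% for Fgf5 and 58.4% for Zfp42, and the median over 32851 promoters of the same length was 52.4%. CpG dinucleotides numbered 27, 6 and 6 in the first 3 and 32, 24 and 9 in the others, with a median of 6 over all promoters. The octamer core stood 99 bases before the start of Sox2, 185 bases before that of Zfp42 and 75 bases before that of Nanog, and 4.12% of all promoters hold it. The SOX core, held by 10.7% of all promoters, was found among the 9 genes in Nanog alone. It stood 67 bases before the start, right beside the octamer core of Nanog without overlapping it. The YY1 core, held by 3.91% of all promoters, was found in 0 of the 9. A match is a run of letters and not a measured site.

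Both D2 libraries placed peaks at 6 of the 9 loci (Pou5f1, Sox2, Nanog, Esrrb, Otx2 and Dnmt3b) and at none of Klf4, Fgf5 and Zfp42. A peak lay in 31.5% of all windows for D2 replicate 1 and in 30.2% for D2 replicate 2. At the shares of their own chromosomes, 2.73 and 2.54 of the 9 loci would hold one. D4 replicate 1 had peaks at 3 loci (Pou5f1, Esrrb and Dnmt3b), where 10.2% of all windows held one, and D4 replicate 2 at 1 locus (Pou5f1), against 8.57% of windows. The female MEF library had a peak at 1 locus (Dnmt3b; 5.07% of windows) and the male MEF library at 2 (Esrrb and Dnmt3b; 6.43% of windows). The D2 counts were above the shares of their chromosomes, and the D4 and MEF counts of 1 to 3 loci stood beside 0.435 to 0.907 at those shares. Each locus is centred near a gene, while the windows behind these shares were not matched for gene content. The part of gene content in the difference was not tested. The series has no male EpiLCs, so what the pulldown captures in EpiLCs without Xist was not measured. No test was made over the loci, which were chosen with earlier results of these data known.

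The 9 windows held 58 peaks in D2 replicate 1 and 45 in D2 replicate 2, but 4 and 1 in the D4 libraries, 1 in the female and 2 in the male MEF library. The D2 peaks covered 412.7 and 192.5 kb, the D4 peaks 8.46 and 2.36 kb, the female MEF peak 2.26 kb and the male MEF peaks 0.493 kb. The D2 and D4 libraries did not overlap in either measure, and neither did their whole lists. The mean number of peaks was 51.5 ± 9.19 (SD, n = 2) at D2 and 2.5 ± 2.12 (SD, n = 2) at D4. This was a difference of 49 peaks and a ratio of 20.6, where the whole lists gave a ratio of 5.84. At the means of their own chromosomes, the 9 windows would hold 15 and 13.4 peaks in the D2 lists and 3.07 and 2.27 in the D4 lists. The D2 counts were thus above those means, while the D4 counts of 4 and 1 lay to either side of theirs. The covered length was 302.6 ± 155.7 kb (SD, n = 2) at D2 and 5.41 ± 4.31 kb (SD, n = 2) at D4. This was a difference of 297.2 kb and a ratio of 55.9. The whole lists covered 77129.5 and 55585.6 kb at D2 and 8048.7 and 5500.8 kb at D4, a ratio of 9.79. For 2 libraries against 2, a two-sided exact permutation test cannot go below p = 0.333, so none was used. Within replicate 1 the ratio of peaks was 14.5 (5.3 over the whole lists), and within replicate 2 it was 45 (6.57 over the whole lists), the latter against 1 peak at D4. Without the Esrrb window, the covered difference was 136.7 kb, and without D2 replicate 1 it was 187.1 kb.

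The whole D2 lists hold 8227 and 7544 peaks, the D4 lists 1553 and 1148, and the MEF lists 1020 (female) and 326 (male). They carry no read counts, so depth is unknown, and the number of called peaks grows with depth. Its part in the D2 to D4 difference was not tested. Each D2 and D4 list was also held to its 1148 peaks of highest −log10 q (the peak caller's adjusted significance). The 9 windows then held 7 and 7 D2 peaks and 2 and 1 D4 peaks, a difference of 5.5 peaks. At 3 loci (Nanog, Otx2 and Esrrb) both D2 libraries then covered more than both D4 libraries. The share of all windows was not computed for lists of this size, so nothing particular to the loci is read from this count.

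Both D2 libraries covered more than both D4 libraries at 6 of the 9 loci, which was so in 25.1% of all windows, and the reverse held at 0 loci and in 0.561% of windows. By role, the 3 core loci held 24 and 18 D2 peaks in replicates 1 and 2, the 3 naive loci 16 and 14, and the 3 loci of the formative and primed genes 18 and 13. All peaks of the naive group were at Esrrb. D2 peaks were thus present at 3 of 3 core loci, 1 of 3 naive loci and 2 of 3 loci of the formative and primed genes. In D2 replicate 1, 22.9% to 34.3% of the windows on the chromosomes of the core loci held a peak. These shares were 25% to 33.9% for the naive loci and 25.7% to 37.2% for the formative and primed ones. With 3 loci per role, no difference between roles is read from these counts.

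**Figure D1:**
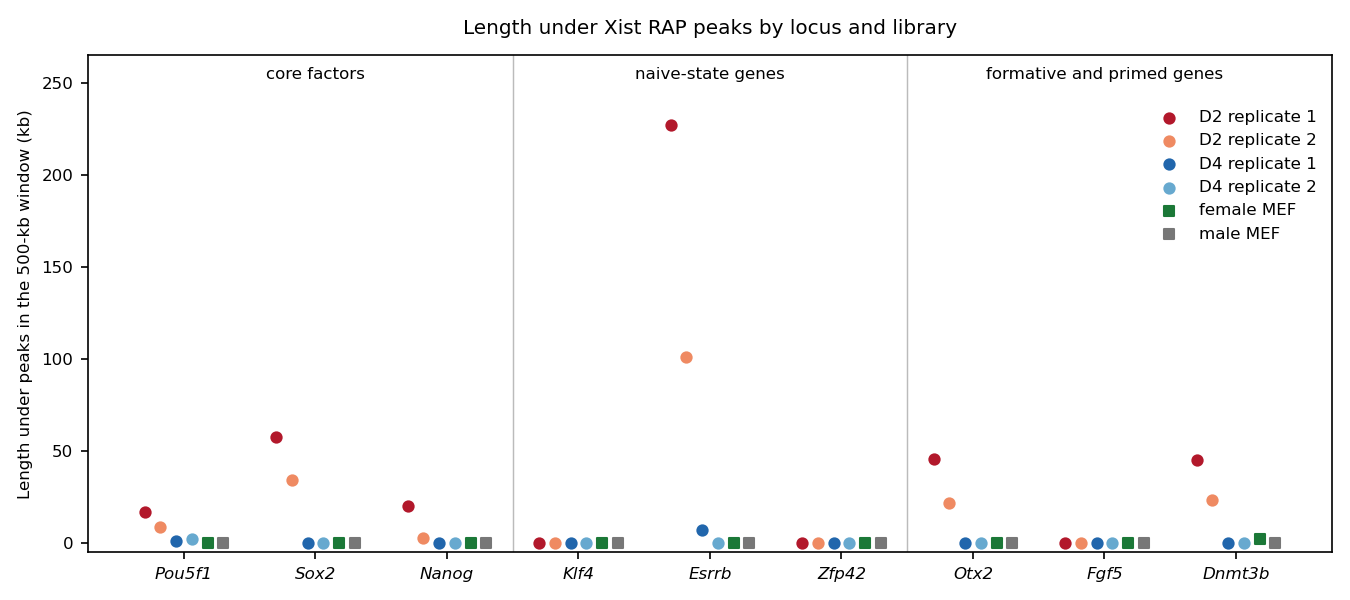
Length under peaks (kb, vertical axis) in the 500-kb window of each gene, with 1 point per library and the genes grouped by role. At D2 the Esrrb points lie at 226.9 and 101.3 kb, the Sox2, Otx2 and Dnmt3b points between 22 and 57.8 kb, and the 3 empty loci at 0.

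Among the core factors, the Sox2 locus carried the most D2 peaks for its chromosome. Sox2, an HMG-box factor that binds DNA together with OCT4, had 12 peaks in each D2 library and 0 in the D4 and MEF libraries. They covered 57.8 and 34.1 kb, or 45.9 ± 16.8 kb (SD, n = 2). A window of chromosome 3 held 0.777 D2 peaks on average, and 0.342% of its 292 windows held as many. The nearest peak of D2 replicate 2, chr3:34547685-34549879, ended 0.121 kb from the given position with a fold enrichment of 2.79 over the peak caller's background. That of replicate 1, chr3:34569662-34572035, began 19.7 kb to the right at 2.70. The replicates thus differed in the peak next to the position, while 6 of 12 peaks of each overlapped the other. They met in 7 segments of 15.6 kb in total, the nearest of them chr3:34516094-34517242 on the left side, and the longest 5.09 kb. At D4 the nearest peak lay 5845.0 kb away in replicate 1 and 6939.9 kb in replicate 2.

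Pou5f1 encodes OCT4, the POU factor without which the inner cell mass does not keep its identity. Its window was the only one with a peak in all 4 EpiLC lists. It held 4 peaks in each D2 library and 1 in each D4 library, with 17 and 8.54 kb covered at D2 and 1.04 and 2.36 kb at D4. The MEF libraries had 0 peaks there, and the covered lengths of the 2 days did not overlap. Chromosome 17 averaged 1.3 D2 peaks per window, and 12.4% of its 169 windows held as many as the Pou5f1 window. The segment chr17:35837314-35840901, 192.3 kb to the right of the position, was called in both D2 lists and overlapped both D4 peaks. Its fold enrichment was 2.61 and 3.33 at D2 and 2.70 and 2.73 at D4. The 3.33 was the highest value of any EpiLC peak at the 9 loci, although each value describes a peak within its own list. Nearer the position, both D2 libraries called a short peak 25 and 24.7 kb to the right (chr17:35669963-35670353 in replicate 1 and chr17:35669722-35670574 in replicate 2, fold enrichment 2.42 and 2.99), with no D4 peak there. In the GRCm38 annotation Pou5f1 lies between H2-Q10 and Tcf19, at the edge of the major histocompatibility genes.

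Nanog, a homeodomain factor that stabilises naive pluripotency, had 8 peaks over 20 kb in D2 replicate 1 and 2 peaks over 2.89 kb in replicate 2. The D4 and MEF libraries had 0. The D2 mean of 11.4 ± 12.1 kb (SD, n = 2) had a spread as large as itself. Both peaks of replicate 2 overlapped peaks of replicate 1, at chr6:122435856-122436600 and chr6:122479552-122481694, both to the left of the position, the nearer at 178.3 kb. The 2 peaks to the right, the nearer of them chr6:122691611-122692152 at 31.6 kb, were in replicate 1 only and have no second library behind them. As many D2 peaks lay in 14.2% of the 288 windows of chromosome 6, whose mean was 2.03. In the full lists Nanog thus stood less far from its chromosome than Sox2. The neighbours in the GRCm38 annotation are Dppa3, itself a gene of the naive state, and Slc2a3.

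Among the naive-state genes, Esrrb differed from the others. Esrrb, an orphan nuclear receptor that takes part in naive self-renewal, had 16 and 14 D2 peaks covering 226.9 and 101.3 kb of its 500 kb. The D4 libraries had 2 and 0 peaks (7.27 and 0 kb), female MEFs 0 and male MEFs 1 (0.187 kb). With 164.1 ± 88.8 kb (SD, n = 2) it was the most covered of the 9 loci at D2, and the replicates differed from each other by more than the whole covered length of any other locus. Chromosome 12 averaged 1.6 D2 peaks per window, and 2.16% of its 232 windows held as many as the Esrrb window.

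The D2 enrichment at Esrrb spread over both sides of the position, with more on the right. In the GRCm38 annotation Esrrb is 160.5 kb long on the plus strand, the longest of the 9 genes. Whether the peaks to the right lie in the gene or beyond it was not tested. In replicate 1 the left side had 55.8 kb and the right 171.1 kb covered, and in replicate 2 the values were 12.4 and 88.9 kb. The nearest peak of replicate 1, chr12:87700658-87732944, was 32.3 kb long and began 0.657 kb from the position (fold enrichment 2.54). That of replicate 2, chr12:87695307-87698332, ended 1.67 kb to the left (2.84). The libraries shared 11 segments with 79.3 kb inside the window, of which chr12:87705329-87711592 and chr12:87717065-87725264 lay within 50 kb. At the right edge replicate 1 had a single peak of 247.2 kb, chr12:87878012-88125245 (2.69), and replicate 2 one of 50.4 kb, chr12:87926315-87976680 (2.91), both running past the window. Both D4 replicate 1 peaks, chr12:87905758-87909156 (2.76) and chr12:87920807-87924677 (2.64), lay in this right-hand stretch, more than 200 kb from the position. The male MEF peak, chr12:87659656-87659842, overlapped a peak of D2 replicate 1 and none of D2 replicate 2. It had the highest fold enrichment of any peak at the 9 loci (3.88, −log10 q 3.34). Fold enrichment describes a peak within its own list, so nothing is read from this rank across lists.

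Klf4, a zinc-finger factor of naive pluripotency and of reprogramming, and Zfp42, which encodes the naive marker REX1, had 0 peaks in all 6 lists. D2 replicate 1 had a peak 319.5 kb from the Klf4 position, outside the window, while D2 replicate 2 had none within 1817.6 kb. The distances at D4 were 6909.8 and 6941.3 kb. Klf4 lay in an interval of 2092.8 kb without a peak of any list, chr4:55220481-57313313. For Zfp42 the nearest D2 peaks were 1640.2 and 1640.4 kb away and were the same region in both libraries (chr8:46020180-46023864 and chr8:46020374-46023624, fold enrichment 2.91 and 3.17). The peak-free interval around it, chr8:42322892-46020179, was 3697.3 kb long over all 6 lists and 8340.1 kb over the 4 EpiLC lists. Intervals of this kind were common by length: those at least as long as that of Klf4 made up 60.2% of chromosome 4, and those at least as long as that of Zfp42 made up 52.7% of chromosome 8.

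Among the genes that rise as naive pluripotency is left, Otx2 had a D2 peak near its position in both libraries. Otx2, a homeodomain factor that redirects OCT4 to new enhancers at this step, had 12 and 8 D2 peaks over 45.6 and 22 kb (33.8 ± 16.7 kb, SD, n = 2). The D4 and MEF libraries had 0. The nearest peaks, chr14:49274460-49275889 in replicate 1 (fold enrichment 2.83) and chr14:49269635-49275125 in replicate 2 (2.95), ended 4.11 and 4.88 kb to the left and shared chr14:49274460-49275125. This segment of 0.666 kb was the closest to a given position among the 29 segments shared by the D2 libraries, and the next, at Esrrb, began 5.33 kb away. Their distances differed by less than the rounding of the positions, so the order of these segments is not settled. The replicates met in 2 other segments of the Otx2 window, 0.18 and 0.482 kb long, so that all 3 made up 1.33 kb, or 0.02 of the length covered by either library. That share was 0.144 at Nanog, 0.185 at Pou5f1, 0.204 at Sox2, 0.319 at Esrrb and 0.457 at Dnmt3b. As many D2 peaks as at Otx2 lay in 6.58% of the 228 windows of chromosome 14, which averaged 1.46.

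Dnmt3b, a de novo DNA methyltransferase of the early epiblast, had its D2 peaks far from the position and on the right side only. D2 replicates 1 and 2 had 6 and 5 peaks over 45.4 and 23.7 kb, the nearest at 154.7 and 148.3 kb. The locus was also the one with peaks in the most libraries: D4 replicate 1, female MEFs and male MEFs had 1 each, covering 0.147, 2.26 and 0.306 kb of the window, and D4 replicate 2 had 0. The segment chr2:153726504-153731066, at the right edge of the window, was called in both D2 lists and overlapped the D4 replicate 1 peak (fold enrichment 2.81) and the female MEF peak (2.90). The male MEF peak, chr2:153679624-153679929 (3.06), overlapped a peak of D2 replicate 1 only. An interval of 818.4 kb without a peak of any list, chr2:152809974-153628347, held the position itself. As many D2 peaks lay in 14.1% of the 355 windows of chromosome 2, whose mean was 2.05.

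Fgf5, the growth factor gene widely used as a marker of EpiLCs, had 0 peaks in all 6 lists and the most distant peaks at D2. The nearest D2 peaks were 5173.1 and 8445.2 kb away, the D4 peaks 13204.4 and 12867.4 kb, the female MEF peak 14186.7 kb and the male MEF peak 5448.3 kb. The interval without any peak, chr5:93231670-103853148, was 10621.5 kb long, and 5 of 696 intervals of chromosome 5 were as long, making up 44.9% of the chromosome. Of points placed every 50 kb along chromosome 5, 87.6% and 89.1% were at least as close to a peak of D2 replicates 1 and 2 as the Fgf5 position.

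**Figure D2:**
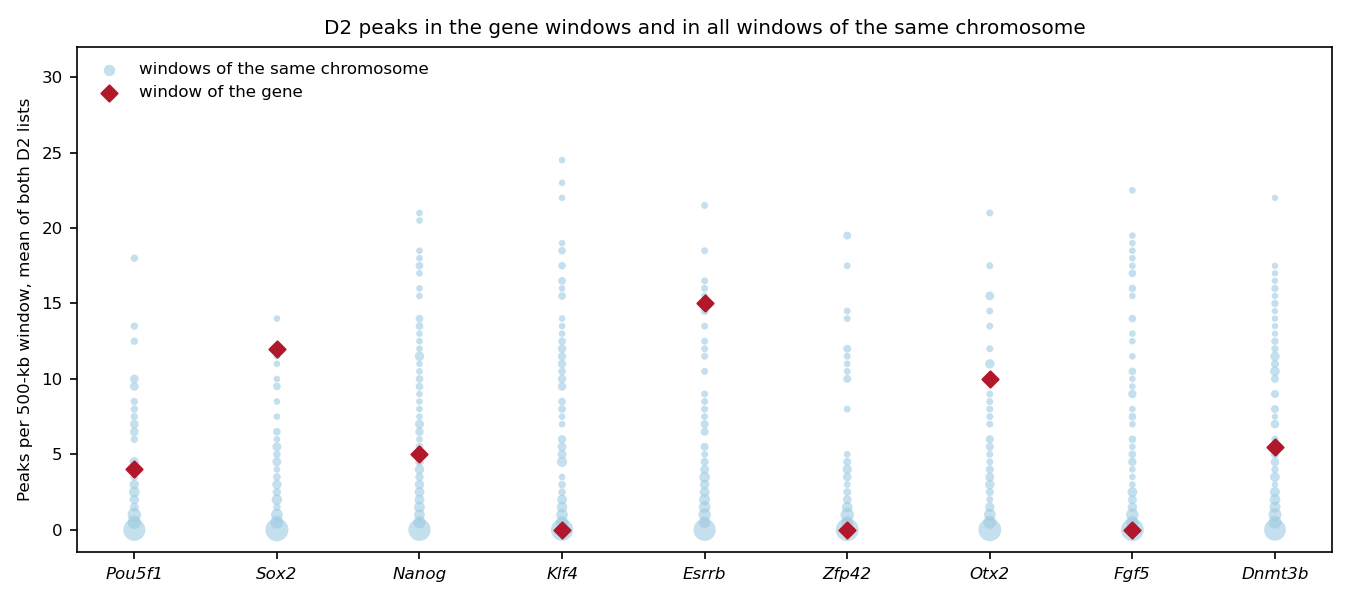
Peaks per 500-kb window (mean of both D2 libraries, vertical axis) for each gene window (diamond) and for all windows of the same chromosome (pale circles, larger where more windows share a value). The Sox2 and Esrrb diamonds, at 12 and 15, lie near the top of their columns, and Klf4, Zfp42 and Fgf5 lie at 0.

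Esrrb, Otx2, Sox2 and Pou5f1 were the positions nearest to D2 peaks in both libraries. In D2 replicates 1 and 2, 2.84% and 2.93% of the points of chromosome 12 lay as close to a peak as Esrrb. For Otx2 these shares were 4.29% and 4.03%, for Sox2 5.78% and 0.684%, and for Pou5f1 9.82% and 8.59%. Nanog followed at 16% and 28.3% and Dnmt3b at 30.9% and 27.9%, while Klf4 had 36.3% and 62.1% and Zfp42 58% and 59%. The replicates kept the first 4 genes apart from the rest, while Nanog overlapped Dnmt3b and Klf4 overlapped Zfp42 in their ranges. Over the 9 loci the D2 replicates had median distances of 31.6 and 148.3 kb, the D4 replicates 1091.1 and 6529.0 kb, and the MEF libraries 11826.2 (female) and 1513.2 kb (male).

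**Figure D3:**
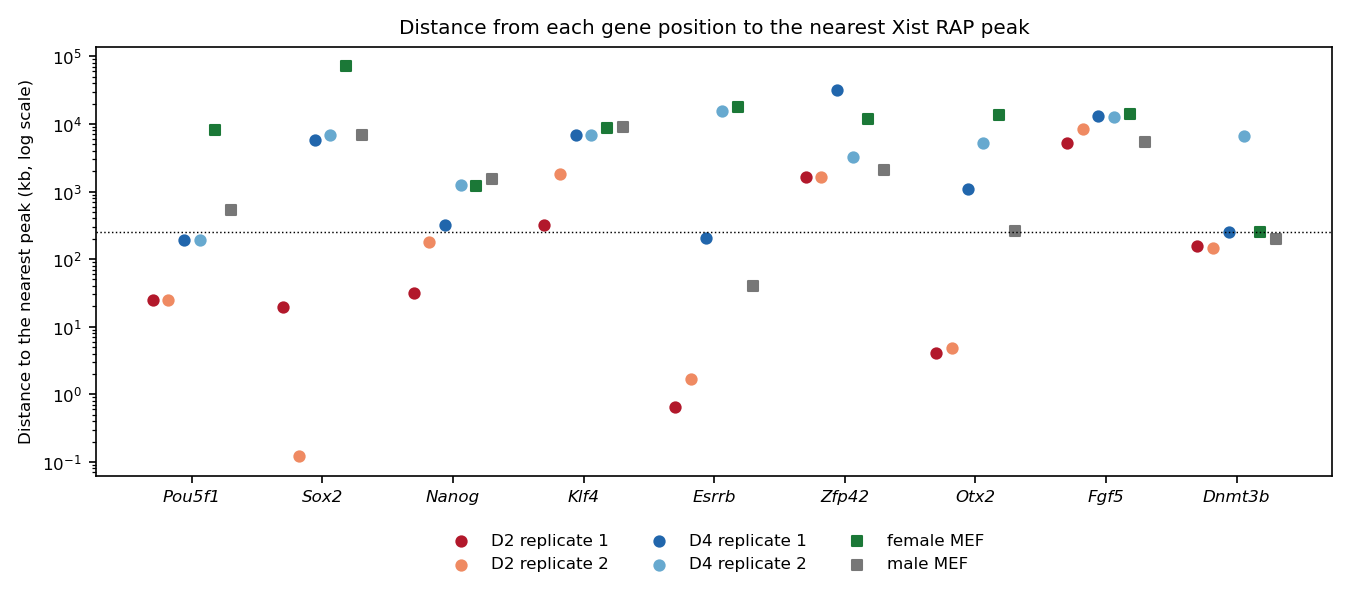
Distance from each gene position to the nearest peak of each library (kb, logarithmic vertical axis), with the dotted line at the window edge of 250 kb. D2 points of Pou5f1, Sox2, Otx2 and Esrrb fall between 0.121 and 25 kb, and Klf4, Zfp42 and Fgf5 have no point under the line.

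The D2 peaks at the 9 loci had a typical fold enrichment for their lists and did not include the highest values. It had a median of 2.61 and 2.79 at the loci in D2 replicates 1 and 2, against 2.61 and 2.8 over the whole lists. The highest value at the loci was 3.12 and 3.33, where the lists reached 14.1 and 11.8. A fold enrichment of at least 3 was found in 2 of 58 and 4 of 45 D2 peaks (3.45% and 8.89%, against 4.4% and 13.6% of the lists), and these 6 peaks were at Esrrb (3), Sox2, Pou5f1 and Otx2 (1 each). A −log10 q of at least 3 was reached by 0 D2 peaks at the loci, where 1.86% and 1.26% of the lists reached it. The 2 male MEF peaks, at Esrrb and Dnmt3b, had a median fold enrichment of 3.47 against 2.91 over their list, and both were at least 3, as were 18.7% of that list. The fold enrichments are the authors' own values and describe each peak within its list.

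Segments shared by both D2 libraries were found at the same 6 loci, where 21.8% of all windows held one. There were 29 such segments, of which 5 lay within 50 kb of a position (2 at Esrrb and 1 each at Sox2, Pou5f1 and Otx2). Of the D2 peaks at the loci, 23 of 58 in replicate 1 (39.7%) overlapped replicate 2, and 27 of 45 in replicate 2 (60%) overlapped replicate 1, close to the 45.3% and 59.3% of the whole lists. Of the 29 segments, 3 overlapped a peak of D4 replicate 1, 1 of D4 replicate 2, 1 of female MEFs and 0 of male MEFs. Among all 4885 such segments of the autosomes, the shares were 12.2%, 7.72%, 6.96% and 1.23%. Conversely, all 5 D4 peaks at the loci (4 of replicate 1 and 1 of replicate 2) overlapped peaks of both D2 libraries, as did 51.9% and 49.3% of the peaks in the whole D4 lists. The female MEF peak did so too, against 29.9% of its list. These are counts of few peaks, and nothing particular to the loci is read from them.

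Covered length did not gather at the positions. In D2 replicate 1, 9.39% of the sequence within 50 kb of the 9 positions was covered, against 6.15% at 50 to 100 kb, 6.88% at 100 to 150 kb, 10.2% at 150 to 200 kb and 13.2% at 200 to 250 kb. Replicate 2 gave 3.23%, 2.79%, 2.81%, 3.78% and 8.77%. In both libraries the outermost ring was the most covered. Esrrb alone gave 71.5 of 84.5 kb within 50 kb in replicate 1 and 17.5 of 29.1 kb in replicate 2, and 53.3 of 118.7 kb and 42.4 of 78.9 kb in the outermost ring. The window edge also decided some values of other libraries. The D4 replicate 1 peak at Dnmt3b began 249.9 kb from the position and the female MEF peak 247.7 kb, just inside, while a male MEF peak 260.0 kb from Otx2 and a D4 replicate 1 peak 315.0 kb from Nanog were outside. Within 100 kb of the positions, neither D4 library nor female MEFs had a peak at any of the 9 loci.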

How the data were processed

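RAP-seq peak lists of 6 pulldown libraries were analysed, 1 list each. Per the submitters' processing notes, the authors used mm9 with MACS2 2.2.7.1, Picard, Bowtie2 2.2.9, Trim Galore 0.4.1, SAMtools 1.9 and bedtools 2.26.0. Settings, and the input behind each list, are not given in the sources used here. Deposited broad-peak lists hold start and end (bp), fold enrichment (a linear ratio over the caller's background), −log10 p and −log10 q. The deposited score equals −log10 q times 10 rounded down and was not used. The deposited peaks are on autosomes only, and the lowest deposited −log10 q was between 1.3 and 1.34 in every list, so calls reach down to weak enrichment. The caller's lowest −log10 p was 4.57 in the male list and at most 2.88 in the others, so weak male peaks may be missing.

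Peaks overlapping a window by at least 1 bp were counted, and their merged length inside it was summed with Python 3.11.15, numpy 2.4.6 and pandas 2.3.3. Figures were drawn with matplotlib 3.10.9. The functions were checked on simulated peaks. Where random windows could have served as a background, all windows were used, with no draw. All 9 loci were named, with the nearest and strongest peak of each and the segments shared between libraries. The members and lists were chosen with earlier results of these data known. Other genes of the network were not located, since the gene table is on GRCm38.

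Per the labels, the replicate 1 EpiLC pulldowns of both days re-analyse earlier data, so the number was taken to mark a data set and to pair D2 with D4. The replicate 1 minus replicate 2 differences in covered length at D2 and D4 had r = 0.22 over the 4633 windows, which are not independent. Alternatives were the window width, stricter peaks, lists of equal number, peak midpoints, leaving out a library and the pairing.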

Additional observations from a re-analysis of the deposited data

How the results depend on the processing

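Of 102 values recomputed under alternatives, 57 stayed within 1.5 times of the value reported (for the covered difference, within 155.8 kb, the spread between libraries). The other 45 moved further and 0 reversed sign. Only the D2 minus D4 differences could reverse, since counts, distances and shares cannot be negative. A difference that fell to 0 was counted as moved. The causes of the moves were not tested beyond the alternatives' own construction (fewer peaks or a narrower or wider window). Leaving out 1 EpiLC library at a time gave a D2 minus D4 difference of 42.5 to 55.5 peaks and 187.1 to 407.3 kb. The count of 6 loci above D4 could not change in these runs and so tests nothing. It asks every kept D2 library to exceed every kept D4 library, and the remaining loci had no peak in any list. The lowest covered difference was that without D2 replicate 1. Segments shared by both D2 lists cannot be counted without 1 of them. With the replicate block the differences were 49 peaks and 297.2 kb, which for 2 complete pairs equal the unblocked values by arithmetic and so test nothing; the block was run for no other result. Windows of 100 kb to each side gave 18 peaks and 97 kb, and 500 kb gave 589.8 kb. Peaks of fold enrichment 3 or more gave differences of 3 peaks and 16.4 kb, with 1 locus above D4. With a −log10 q of at least 3 they were 0 peaks and 0 kb, with 0 loci above D4. With 1148 peaks per EpiLC list they were 5.5 peaks and 23.6 kb, with 3 loci above D4. Loci holding a segment shared by the D2 lists fell from 6 to 0 at a fold enrichment of at least 3 and to 0 at a −log10 q of at least 3. Loci with a peak were, for D2 replicates 1 and 2, 2 and 3 at a fold enrichment of at least 3, 0 and 0 at a −log10 q of at least 3, and 1 and 2 with all lists held to 326 peaks. For D4 replicates 1 and 2 and for female MEFs they were 0 under each of these 3 settings and within 100 kb. Female MEFs also had 0 loci when peak midpoints had to lie inside the window. Male MEFs had 1 locus at a −log10 q of at least 3 and 1 within 100 kb. How often windows elsewhere held a peak was not counted for these reduced lists or for the narrower window. The locus counts under these settings were thus not set against a background, and neither an excess at D2 nor its loss is read from them. Under the −log10 q limit of 3, the D2 lists had median nearest distances of 2768.1 and 9554.5 kb, the D4 lists 23235.1 and 14499.0 kb and the male MEF list 6913.6 kb. With 326 peaks per list the D2 values were 958.8 and 2768.1 kb and the D4 values 13959.1 and 10143.3 kb. Windows every 50 kb held a peak in 31.3%, 29.8%, 10.2%, 8.46%, 4.98% and 6.36% of cases in the order of the lists. Chosen after seeing the data, leaving out peaks that overlap a male MEF peak gave 48 peaks and 285.9 kb, and leaving out the Esrrb window gave 136.7 kb. All D2 peaks at the loci had a −log10 q under 3, and depth, which the lists do not give, limits every count.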

Other observations

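The D2 enrichment at Esrrb was part of a longer stretch. Within 1000 kb of the Esrrb position there were 42 and 41 peaks in D2 replicates 1 and 2, 3 and 0 in the D4 libraries, 0 in the female and 2 in the male MEF library. The same range held 21 and 18 D2 peaks around Sox2, 18 and 12 around Otx2, 17 and 13 around Dnmt3b, 14 and 11 around Pou5f1, and 11 and 5 around Nanog. Around Klf4 it held 1 and 0, and around Zfp42 and Fgf5 0 and 0. At Pou5f1 this range was the only one with more peaks in D4 replicate 2 (4) than in D4 replicate 1 (2). At Dnmt3b it held 6 female MEF peaks, the only locus of the 9 with a female MEF peak in this range.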
